A study of Mus musculus with 66 samples.

Results

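The regions described here are the enriched regions (islands) of the histone marks H3K9me3 and H3K36me3 that lie in mouse genes named Zfp followed by digits, outside the 3 large zinc-finger gene clusters of chromosomes 2, 4 and 13. Members were all listed islands that overlapped the body of such a protein-coding gene on chromosomes 1 to 19 of the GRCm38 build (GENCODE annotation). There were 309 such genes among 20807 protein-coding autosomal genes, and they held 7256 of 2049744 islands over all libraries. Of these, 3709 of 1239421 were H3K9me3 islands and 3547 of 810323 were H3K36me3 islands. The choice used gene names and positions and no measured level.

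Most Zfp genes encode proteins with arrays of C2H2 zinc fingers, short folds held by a zinc ion that read DNA sequence and are joined by a conserved linker. Many also carry a KRAB domain, which recruits the co-repressor TRIM28 and with it the methyltransferase SETDB1, an enzyme that deposits H3K9me3, often over transposable elements. H3K9me3 is a mark of heterochromatin, whereas H3K36me3 is laid down by SETD2 over the bodies of transcribed genes, and zinc-finger genes are known as places where both marks can be found together.

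The study asked whether binge-like ethanol in adolescence alters these marks in the prefrontal cortex. Male and female DBA/2J mice, an inbred strain, received 4 g/kg ethanol (25% w/v) or water by gavage on an intermittent schedule from postnatal day 29 to 42. The cortex was collected 24 h after dosing ended. Each of the 22 pools combined the cortex of 3 mice of one sex and treatment, with 6 ethanol and 5 water pools for each sex, and each pool gave 1 H3K9me3 and 1 H3K36me3 library. All groups were gavaged, none carried a genetic change, and the whole tissue was used, so that a level is an average over its cell types and fewer marked cells cannot be told apart from less mark per cell.

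Islands listed per library numbered 41363 to 72480 for H3K9me3 and 19617 to 61910 for H3K36me3, with 5.73 to 14.2 and 1.70 to 4.79 M precipitated reads inside them. Except where stated otherwise, the values below use islands with a false discovery rate (FDR) of at most 0.01, of which a library had 12804 to 62374 for H3K9me3 and 2248 to 28294 for H3K36me3. A pair of libraries stood apart at the low end: female water pool 2 had the fewest H3K9me3 islands, and male ethanol pool 6 the fewest H3K36me3 islands, with 50 and 6 of them in member genes against medians of 144 and 102. Male ethanol pool 4 had the most H3K9me3 islands and 212 in member genes. Marker genes gave only a weak check of the tissue. H3K36me3 was found in at least 11 libraries in 2 of 6 neuronal markers, among them Rbfox3 with 11. The counts were 0 of 3 for astrocyte markers, 0 of 2 for oligodendrocyte markers and 1 of 2 for microglial markers (Cx3cr1). They were 0 of 5 for markers of other tissues, although Ttn, a muscle gene, had H3K36me3 in 10 libraries.

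Sequences from the marked genes are shown first, because they differ in whether the mark lies on the finger-coding exon or in an intron. The first group consists of coding stretches of 98 bases that run from one finger linker to the next, read on the coding strand from the GRCm38 RefSeq genome, with both linkers in capitals. The linker was searched as a run of 14 bases, namely AC, any base, GG, any base, GA, any base, AA, any base and CC. These stretches were under H3K9me3 islands in 19 libraries in Zfp960 (chr17:17087890-17087987, plus strand), 17 in Zfp97 (chr17:17145105-17145202, plus strand), 2 in Zfp808 (chr13:62173020-62173117, plus strand) and 0 in Zfp560 (chr9:20348144-20348241, minus strand).
Zfp960: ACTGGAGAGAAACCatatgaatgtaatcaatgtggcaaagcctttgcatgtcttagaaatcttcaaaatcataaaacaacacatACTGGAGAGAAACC
Zfp97: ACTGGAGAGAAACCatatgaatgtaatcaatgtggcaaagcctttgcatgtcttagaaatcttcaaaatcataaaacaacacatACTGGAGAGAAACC
Zfp808: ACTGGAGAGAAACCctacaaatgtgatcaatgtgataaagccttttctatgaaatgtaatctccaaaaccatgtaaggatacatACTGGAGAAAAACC
Zfp560: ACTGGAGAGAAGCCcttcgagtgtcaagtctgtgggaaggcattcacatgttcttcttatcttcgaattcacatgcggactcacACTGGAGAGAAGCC

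The stretches of Zfp960 and Zfp97 are identical. These genes are neighbours on chromosome 17, and reads were kept only where they aligned to 1 place, so their values are uncertain wherever their sequences match. The second group consists of the central 200 bases of intronic H3K9me3 regions that were marked in all 22 libraries, on the strand of the gene, with bases outside annotated repeats in capitals and repeat-masked bases in lower case. In Zfp936 (chr7:43160800-43160999, plus strand) 0 bases were masked, and in Zfp808 (chr13:62194800-62194999, plus strand) all 200 were.
Zfp936: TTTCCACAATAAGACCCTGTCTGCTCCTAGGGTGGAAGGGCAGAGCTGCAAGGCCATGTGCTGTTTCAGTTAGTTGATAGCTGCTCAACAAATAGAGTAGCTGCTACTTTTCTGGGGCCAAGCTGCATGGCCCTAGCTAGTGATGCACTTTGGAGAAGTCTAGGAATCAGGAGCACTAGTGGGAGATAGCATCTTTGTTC
Zfp808: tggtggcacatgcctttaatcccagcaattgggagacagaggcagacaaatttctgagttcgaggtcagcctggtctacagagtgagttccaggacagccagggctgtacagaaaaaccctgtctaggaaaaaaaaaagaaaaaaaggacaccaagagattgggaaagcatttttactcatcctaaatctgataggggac

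A minority of the Zfp genes outside the clusters carried H3K9me3. A gene was counted as marked in a library where islands covered at least 200 bp of its body. H3K9me3 marked 46 of 309 genes (14.9%) in at least 11 of 22 libraries and 20 in all 22, while 221 had it in none. The same count was 24 of 49 (49.0%) for the Zfp genes inside the clusters, 11 of 70 (15.7%) for the Zscan, Zkscan and Zbtb genes, which encode other zinc-finger families, and 2237 of 20379 (10.98%) for the remaining protein-coding genes.

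With islands at an FDR of at most 0.01, H3K36me3 was found in more of these genes, and in none of them in every library. It marked 68 of 309 (22.0%) in at least 11 libraries and 0 in all 22, and 79 genes had it in none. The order of the marks depended on this limit, since with islands at an FDR of at most 1e-05 H3K9me3 marked 35 genes in at least 11 libraries and H3K36me3 marked 21. In the clusters the count was 22 of 49 (44.9%), among the Zscan, Zkscan and Zbtb genes 5 of 70 (7.14%), and among the remaining genes 3282 of 20379 (16.1%). These counts were not tested, since genes are not replicates.

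Islands of H3K9me3 covered a median of 4.92% of the summed length of the 309 gene bodies (1.72% to 7.03% over libraries), against 31.9% in the clusters and 2.06% in the remaining genes. The share was above that of the remaining genes in 22 of 22 libraries. For H3K36me3 the median was 2.85% (0.154% to 6.65%), against 11.98% in the clusters and 1.496% in the remaining genes, and it was higher in 21 of 22 libraries. Enrichment over input within member islands was modest. The median fold per library had a median of 1.87 for H3K9me3 and 1.81 for H3K36me3, above the corresponding value for all islands in 22 and 20 of 22 libraries.

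The marked genes were spread unevenly over chromosomes. Chromosome 17 held 41 members, of which 13 had H3K9me3 and 13 had H3K36me3 in at least 11 libraries. Chromosome 7 held the most members, 89, of which 9 and 20 were marked. On chromosome 6 the numbers were 0 and 3 of 17.

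Zfp960 and Zfp97 on chromosome 17 were the most extensively marked members. H3K9me3 covered a median of 84.1% of the Zfp960 body (chr17:17064113-17089628, 53.4% to 93.4% over the 22 libraries) and 76.4% of the Zfp97 body (chr17:17121415-17146831, 65.4% to 88.3%). H3K36me3 covered a median of 76.4% of Zfp960 (0% to 87.8%) and 65.4% of Zfp97 (0% to 86.6%). The groups overlapped in both genes, with H3K9me3 over Zfp960 running from 84.2% to 91.4% in male ethanol, 83.98% to 92.9% in male water, 79.3% to 88.7% in female ethanol and 53.4% to 93.4% in female water pools. Input reads were also dense in the H3K9me3 islands of these genes, at a median of 29.1 per kb in Zfp960 and 26.3 in Zfp97 against 20.5 over all H3K9me3 islands, and the part of this in their values was not tested.

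Among the members with H3K9me3 in all 22 libraries, Zfp936, Zfp735 and Zfp808 followed. The median covered share was 58.8% of Zfp936 (chr7:43114229-43192109, 27.99% to 74.1%), 49.2% of Zfp735 (chr11:73688778-73713798, 27.2% to 64.7%) and 42.0% of Zfp808 (chr13:62129886-62236144, 15.2% to 58.5%). Zfp442, with H3K9me3 in 21 libraries, lay between the first pair of them at 53.4%. H3K36me3 in Zfp936, Zfp735 and Zfp808 was sparse, present in 16, 10 and 15 libraries with medians of 3.98%, 0% and 1.51%. Enrichment over input in the H3K9me3 islands was highest in Zfp808 among these, with a median of 2.29 (1.62 to 2.61), against 2.08 in Zfp936 and 1.80 in Zfp735.

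Zfp850 on chromosome 7 carried both marks over a similar part of its body, with a median of 32.1% under H3K9me3 (17.8% to 44.4%, 22 libraries) and 34.5% under H3K36me3 (0% to 50.6%, 21 libraries). Its nearest member, Zfp974, had H3K9me3 in 12 libraries and H3K36me3 in 16, with medians of 3.17% and 9.52%. Further along, Zfp59 and Zfp60 had H3K36me3 in 19 libraries each, with medians of 24.1% and 22.4%, and H3K9me3 in 0. Zfp934 and Zfp935 on chromosome 13 overlap each other, so that 1 set of islands counts for both. H3K9me3 covered a median of 34.2% of Zfp934 and 30.5% of Zfp935.

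The remaining genes chosen for H3K9me3 in all 22 libraries had smaller shares, with medians of 25.4% in Zfp995, 19.5% in Zfp560 and 10.7% in Zfp697. The annotated body of Zfp697 is 371352 bases long and overlaps 6 other protein-coding genes, among them the steroid dehydrogenase genes Hsd3b2 and Hsd3b3, so that its islands cannot be assigned to Zfp697 alone. Zfp160 had H3K9me3 in 21 and H3K36me3 in 18 libraries, with medians of 12.3% and 13.8%, and Zfp945 had them in 18 and 19 libraries with a median of 14.2% for each.

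**Figure D1:**
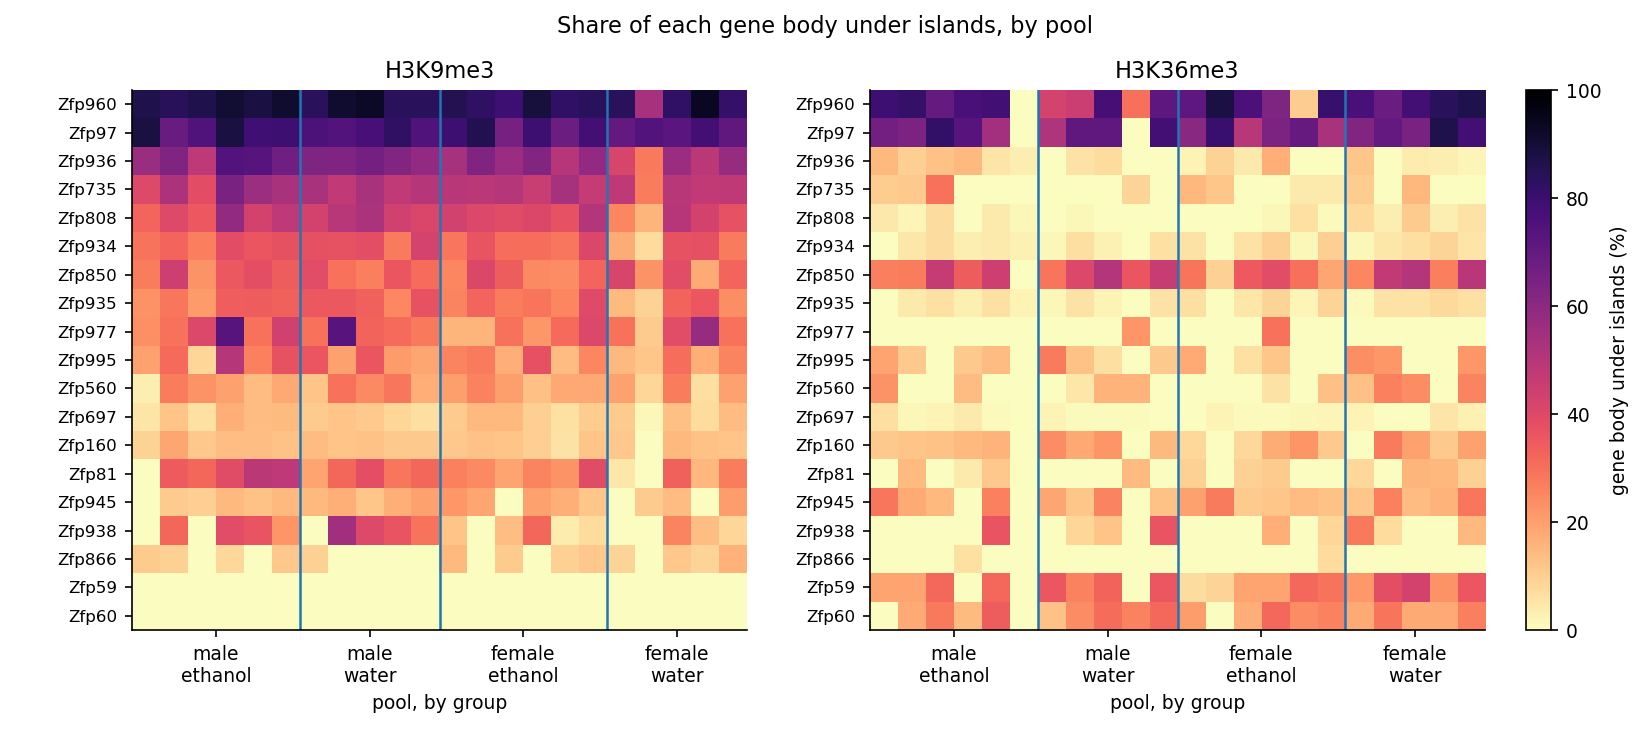
Colour gives the percentage of each gene body (rows) under islands with an FDR of at most 0.01 in each of the 22 pools (columns, separated by group), for H3K9me3 on the left and H3K36me3 on the right. Zfp960 and Zfp97 are dark for both marks, Zfp59 and Zfp60 have only H3K36me3 here, and the male ethanol pool at the right edge of its group, pool 6, is pale for H3K36me3.

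Both marks were found in the same gene in at least 11 libraries each for 29 of the 309 members. No such count is given here for the remaining genes, so it cannot be called a trait of these members. Within a pool, the islands overlapped in Zfp960 and Zfp850 in 21 pools, Zfp97 in 20, and Zfp934 and Zfp935 in 18. The median overlapped length was 18.8 kb in Zfp960, 16 kb in Zfp97 and 6.9 kb in Zfp850. In Zfp160 the medians of the marks lay at opposite ends, although the islands overlapped in 5 pools. Each gene body was divided into 3 equal parts, called front, middle and end in the direction of transcription. H3K9me3 covered a median of 36.9% of the end part of Zfp160 and 0% of its front part, and H3K36me3 covered 37.8% of its front part and 0% of its end part, with the end part the higher in 3 libraries and the front part in 15.

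Along the gene body, both marks were highest in the middle. Averaged over member genes and with the body divided into 10 equal steps, H3K9me3 covered a median of 1.31% of step 1, 5.47% of step 6 and 1.70% of step 10. H3K36me3 covered 0.621% of step 1, 6.81% of step 6 and 1.42% of step 10. In the remaining protein-coding genes the middle was also the highest, at 1.01%, 1.86% and 1.13% of these steps for H3K9me3 and 0.612%, 2.01% and 1.03% for H3K36me3. In the Zfp genes of the clusters H3K9me3 covered 26.5% of step 1 and 25.5% of step 10. A transcription start lay under a consensus H3K9me3 region, one covered in at least 11 libraries, in 2 of 309 members (0.647%) and in 106 of 20379 remaining genes (0.52%). For H3K36me3 the numbers were 0 of 309 and 27 of 20379 (0.132%).

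**Figure D2:**
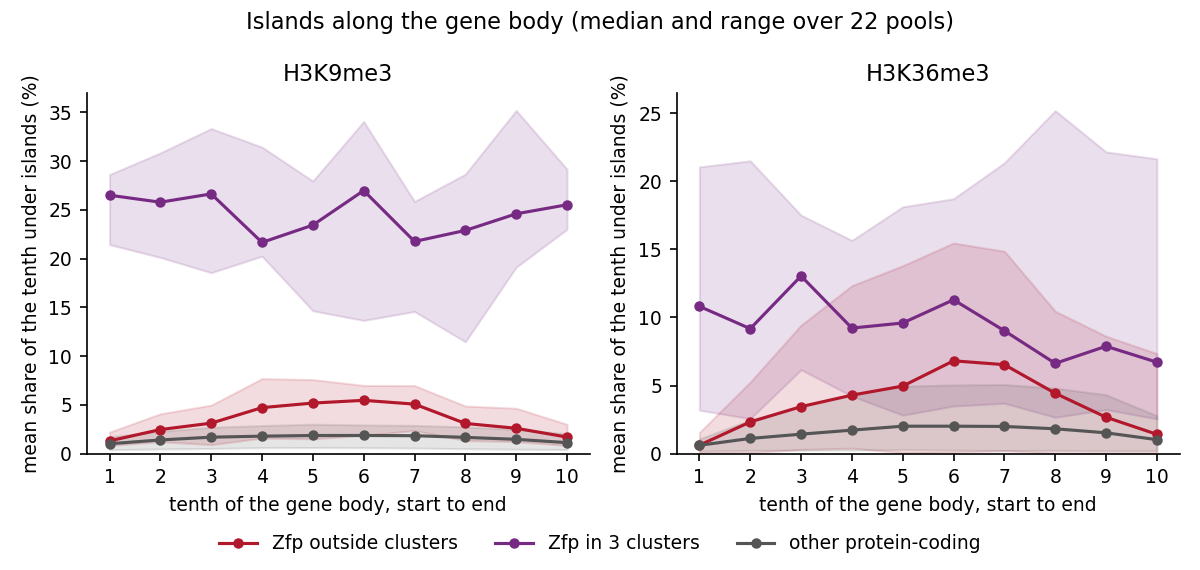
The horizontal axis divides each gene body into 10 equal steps from start to end, and the vertical axis gives the mean percentage of each step under islands, as the median (line) and range (band) over 22 pools for Zfp genes outside the clusters, Zfp genes inside them and other protein-coding genes. The line of the Zfp genes outside the clusters is highest at 5.47% for H3K9me3 and 6.81% for H3K36me3 in step 6.

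The front and end parts of each gene were compared within libraries by an exact two-sided sign test, adjusted over all protein-coding genes with islands in either part in at least 6 libraries. For H3K9me3, 16 of 45 members tested had more in the end part and 15 more in the front (35.6% and 33.3%), and over all 2465 genes tested 39.9% and 39.8% were called in these directions. For H3K36me3, 31 of 100 members had more in the end part and 15 more in the front (31% and 15%), against 29.2% and 15.9% of 4930 genes. The shares of members called were near the background for both marks. Summed over length, H3K9me3 covered a median of 4.46% of the end and 3.89% of the front parts of members. The end was the higher in 20 of 22 libraries, against 0 for the remaining genes and 4 for the Zfp genes of the clusters. For H3K36me3 it was the higher in 15, against 19 and 2. Long genes such as Zfp697 weigh most in these sums, and their part was not tested.

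The named genes were chosen partly by these shares, so their values are a description with no test. Zfp850 had more H3K9me3 in its end part in 22 of 22 libraries, with medians of 31.9% and 0%, and Zfp977 had more in its front part in 22 of 22, with medians of 88.1% and 0%. Zfp808 and Zfp960 also had more in the front part in 22 of 22 libraries, with medians of 40.8% against 30.0% and 96.6% against 80.0%. In Zfp81, Zfp938 and Zfp866 the front part was the higher in 18, 15 and 13 libraries and the end part in 0. Zfp866 overlaps 2 other protein-coding genes, Gm20422 and Atp13a1, so its islands cannot be assigned to it alone. For H3K36me3, Zfp60 had more in its end part in 19 of 19 libraries that differed and Zfp59 in 18 of 19.

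H3K9me3 in these genes lay mostly in introns and repeats, as it did in the remaining genes. Consensus regions covered 449.8 kb of member gene bodies, of which 97.8% was intron, 2.18% exon and 0.636% coding sequence. Intron made up 82.5% of the rest of the member bodies and 97.5% of the length under H3K9me3 in the remaining protein-coding genes. Repeat-masked bases made up 76.2% of that length and 26.5% of the rest of the member bodies. In the remaining protein-coding genes the values were 89.7% and 25.7%. The masked share under H3K9me3 ran from 43.4% to 100% over the 42 members with such a region, with a median of 80.7%. It was 47.6% in Zfp960, 61.8% in Zfp808, 76.7% in Zfp850 and 99.7% in Zfp160. Under H3K36me3 consensus regions, which covered 129.6 kb, the masked share was 55.3%, against 28.4% outside them.

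The finger linkers themselves were seldom covered. The linker motif occurred in the coding sequence of 222 of 309 members (1274 matches) and of 191 of 20379 remaining genes (0.937%). H3K9me3 islands covered a median of 2.04% of the member linkers (0% to 4.08%) and 0.699% of their coding sequence, and the linker share was above that of the gene body in 0 of 22 libraries. H3K36me3 covered a median of 1.099% of linkers (0% to 6.28%), above the body in 5 libraries. Zfp960 and Zfp97 were the members whose median number of linkers under H3K9me3 was above 0. Without them, an alternative chosen after seeing the data, the medians over the other 1253 linkers were 1.04% for H3K9me3 (0% to 2.79%) and 0.758% for H3K36me3 (0% to 4.95%). Searched on both strands in the central 300 bases of consensus regions, the motif was found in 27 of 41110 H3K9me3 regions (0.0657%), with 1 of 140 in members, and in 3 of 4620 H3K36me3 regions, with 0 of 53 in members.

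**Figure D3:**
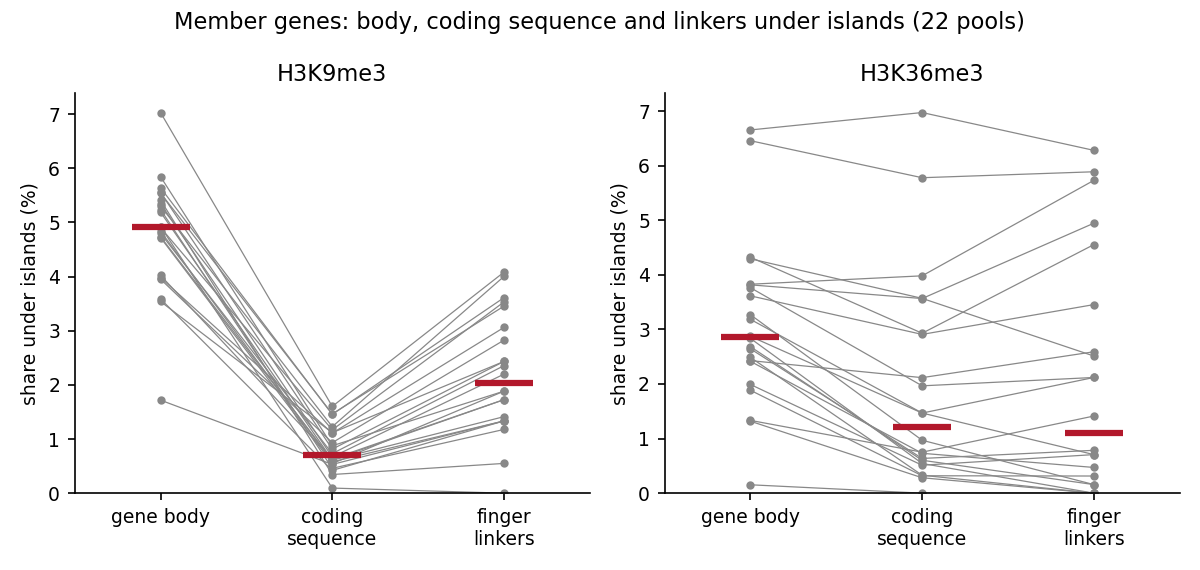
Each grey line joins, for 1 pool, the percentages of member gene-body length, of coding sequence and of finger linkers under islands, and red bars are medians over 22 pools. For H3K9me3 the medians are 4.92%, 0.699% and 2.04%, and the linker value lies below the body value in every pool.

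The share of genes marked was higher in classes with more finger linkers. Among members with 0 coding linkers, 4 of 87 (4.60%) had H3K9me3 in at least 11 libraries, against 10 of 110 (9.09%) with 1 to 5 linkers, 23 of 90 (25.6%) with 6 to 10 and 9 of 22 (40.9%) with over 10. For H3K36me3 the shares were 11.5%, 17.3%, 33.3% and 40.9%. Median gene lengths in these classes were 19.9, 13.7, 16.1 and 21.02 kb. These shares are a description, and the part of gene length in them was not tested.

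A list of 15 genes of the KRAB pathway, among them the member Zfp57, was examined as well. H3K36me3 was found in at least 11 libraries in 4 of them, Chd4 (21 libraries), Smarcad1 (20), Atf7ip (14) and Setd2 (12), and H3K9me3 in 1, Smarcad1 (19). Among the remaining protein-coding genes the shares were 16.1% for H3K36me3 and 10.98% for H3K9me3, and the list was not tested against them. CHD4 and SMARCAD1 are chromatin remodellers, and ATF7IP is a partner of SETDB1. Trim28 and Setdb1 had H3K36me3 in 6 and 10 libraries and H3K9me3 in 0.

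The shares of the Zfp genes outside the clusters covered in ethanol and water pools overlapped. In males, H3K9me3 covered 5.20% ± 1.29 (SD, n = 6) of member length in ethanol and 5.16% ± 0.33 (n = 5) in water pools. In females it covered 4.86% ± 0.50 and 3.93% ± 1.45, where the lowest water value, 1.72%, came from the pool with few islands. H3K36me3 covered 2.24% ± 1.35 against 3.26% ± 1.15 in males and 2.56% ± 0.65 against 4.64% ± 1.83 in females. The groups overlapped in each of these comparisons. For H3K36me3 in females the overlap came from 1 pool, female water pool 1 at 2.49%, while the ethanol pools ran from 1.33% to 3.18% and the other 4 water pools from 3.76% to 6.65%.

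**Figure D4:**
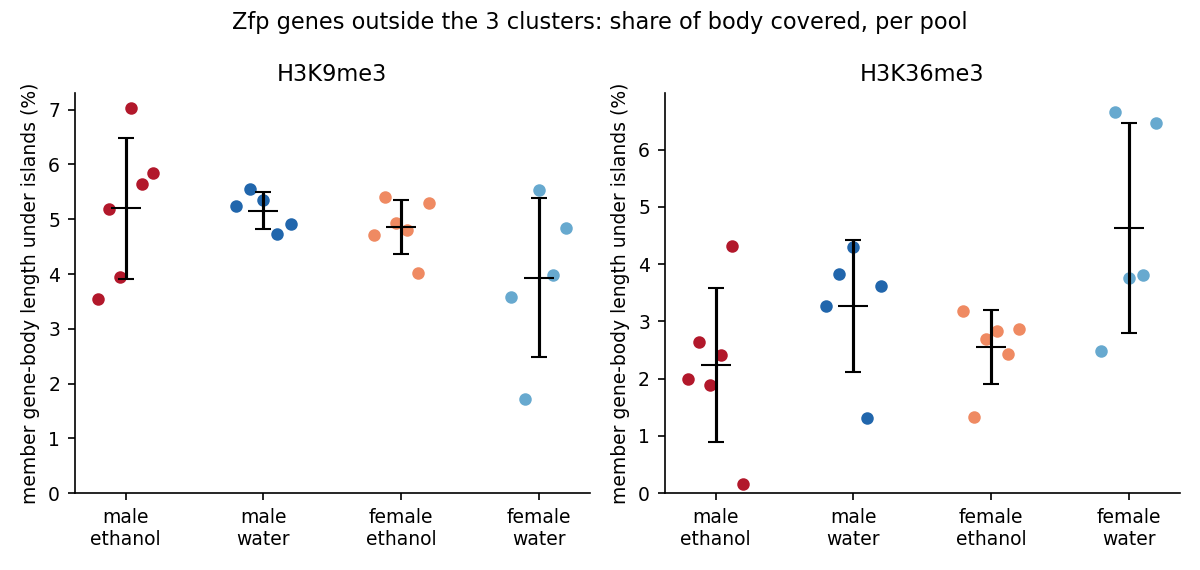
Points give the percentage of summed member gene-body length under islands in each pool, by sex and treatment, and black bars give the mean and SD (6 ethanol or 5 water pools). Ethanol and water pools overlap in every panel, and the lowest points are female water pool 2 for H3K9me3 (1.72%) and male ethanol pool 6 for H3K36me3 (0.154%).

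The share of H3K9me3 length that also lay under H3K36me3 was, of the coverage summaries compared within a sex, the 1 whose groups did not overlap. In females it was 18.5% ± 4.03 (13.5% to 23.7%) in ethanol and 30.5% ± 5.52 (25.7% to 39.8%) in water pools. Over all genes the values were 14.2% ± 3.69 and 23.9% ± 2.88, also without overlap. In males the member values were 21.3% ± 10.6 and 15.96% ± 4.74 and overlapped. The highest female water value, 39.8%, came from pool 2, which had the fewest H3K9me3 islands. Mean H3K36me3 coverage of member length was 2.56% in female ethanol and 4.64% in female water pools. Its part in the overlap of the marks was not tested. The share of H3K36me3 length under H3K9me3 was 52.4% ± 12.8 in male ethanol (n = 6) and 25.8% ± 2.11 in male water pools (n = 5), and the groups overlapped through male ethanol pool 5 at 27.6%.

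Reads in single regions were compared between ethanol and water by edgeR's quasi-likelihood test over all consensus regions of the genome, here built from all listed islands and tested where every library of the comparison had an island. Fold changes are ethanol over water. Levels are CPM, the reads of a region relative to the library's reads in tested regions, a total adjusted by TMM scaling factors. In males, 1 of 81 H3K9me3 member regions reached an unadjusted p of 0.05 (1.23%), against 2.91% of the 27957 regions tested. Relative to input (limma), 7 of these 81 regions reached it, against 5.44% of all regions, so that the members' share lay below the background in one fit and above it in the other. In females it was 1 of 65 (1.54%) against 3.99% of 27241. For H3K36me3, 2 of 21 regions reached it in males (9.52%) against 5.71% of 7532, and 2 of 34 in females (5.88%) against 3.6% of 9018. By the Benjamini-Hochberg adjustment in edgeR, 0 regions passed at 0.05 in members or over all regions, and the lowest adjusted p of a member was 0.845. DESeq2 also called 0 member regions after adjustment, and over all regions it called 8 and 2 for H3K9me3 and 3 and 0 for H3K36me3, in males and females. Median log2 fold changes over member regions were 0.01 and 0.04 for H3K9me3 and -0.07 and -0.02 for H3K36me3, in males and females. Scaling mattered most for H3K36me3 in males: of all regions at the unadjusted threshold, 47% were higher in ethanol with TMM factors and 95.6% without them, and the median of all regions moved from 0.01 to 0.17 (log2) and that of members from -0.07 to 0.10. For H3K9me3 in males the share higher in ethanol was 56% with the factors and 67% without.

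The region in the end part of Zfp763 on chromosome 17 (chr17:33020201-33021000) had the smallest p among the member regions in the male H3K36me3 comparison. Its 5 water pools stood at 102.4, 86.2, 124.5, 94.4 and 91.4 CPM, and its ethanol pools ran from 24.3 to 83.99 CPM. All ethanol pools were below all water pools, which held for 1 of 21 member regions and 27 of all 7532 regions tested (0.358%). Input reads were dense in the H3K36me3 islands of Zfp763, at a median of 97 per kb against 21.5 over all H3K36me3 islands, and the part of this in the values was not tested. The difference was -0.78 on the log2 scale with an SE of 0.24, and edgeR's adjusted p was 0.845. Islands covered a mean of 75.0% of this 800-base region in ethanol and 100% in water pools, and the ratio over input gave a log2 change of -0.50 (limma adjusted p = 0.68). Without TMM factors the log2 change was -0.61.

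In Zfp942, also on chromosome 17 (chr17:21945401-21950800), female water pools stood at 92.5, 103.1, 90.1, 87.6 and 92.9 CPM and ethanol pools at 61.4 to 83.9 CPM, without overlap. All ethanol pools were lower in 1 of 34 member regions and in 16 of all 9018 regions tested (0.177%). All ethanol pools were higher in 0 member regions for H3K36me3, against 0.239% of all regions in males and 0.288% in females. For H3K9me3, 0 of 81 member regions in males and 0 of 65 in females were without overlap, against 0.154% lower and 0.215% higher of all regions in males and 0.217% and 0.169% in females. The difference was -0.31 on the log2 scale with an SE of 0.11, and edgeR's adjusted p was 0.995. Islands covered a mean of 76.5% of the region in ethanol and 89.6% in water pools, and relative to input the log2 change was -0.18 (limma adjusted p = 0.95).

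The 4 other regions at this threshold had overlapping groups. H3K36me3 over Zfp850 in males (chr7:27991001-28004600) stood at 148.5 to 274.7 CPM in ethanol and 206.9 to 290.8 in water pools (log2 fold change -0.43, SE 0.17), and without TMM factors the change was -0.27 and missed the threshold. H3K36me3 in the front part of Zfp697 in females was 70.5 to 79.2 CPM against 46.8 to 80.8 (log2 fold change 0.28, SE 0.13), and it missed the threshold without TMM factors. H3K9me3 in Zfp808 in males (chr13:62164801-62167800) was 14.8 to 21.1 CPM against 15.8 to 25.3 (log2 fold change -0.37, SE 0.15), and input reads in the same region moved by -0.32. H3K9me3 in Zfp81 in females (chr17:33339401-33343000) was 23.5 to 32.2 CPM against 13.7 to 28.04 (log2 fold change 0.37, SE 0.16), with input reads moving by 0.55. Leaving out 1 pool at a time, the regions of Zfp763 and Zfp942 stayed at the unadjusted threshold in 11 of 11 fits. It was missed in 3 fits for Zfp808, 4 for Zfp850, 6 for Zfp81 and 10 for Zfp697, with the largest p without male water pool 5, male water pool 3 and, for the last pair of genes, female water pool 2.

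**Figure D5:**
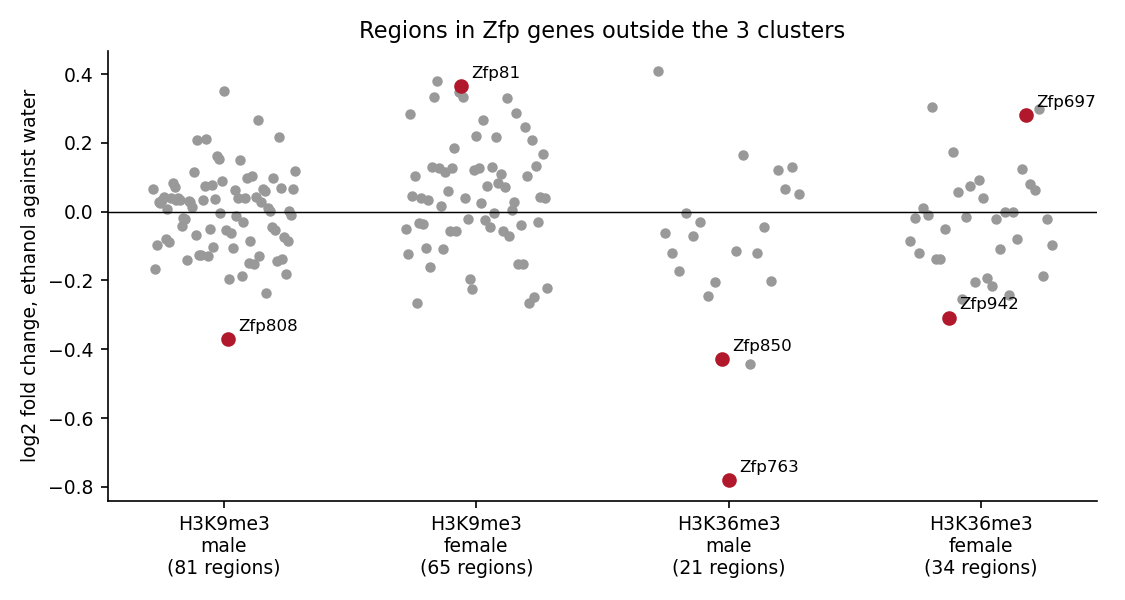
Points give the log2 fold change, ethanol over water, of each member region tested, for each mark and sex, and red points are regions with an unadjusted edgeR p of 0.05 or lower. Zfp763 lies lowest at -0.78 in male H3K36me3, and the points of each comparison scatter around 0.

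The treatment difference was set against sex by an interaction term over regions with islands in all 22 libraries. For H3K9me3, 2 of 61 member regions reached an unadjusted p of 0.05 (3.28%, against 3.62% of all regions). They were the regions in Zfp808 (log2 difference, female minus male, of 0.50, SE 0.20) and Zfp81 (0.43, SE 0.20), each with an edgeR adjusted p of 1. Leaving out 1 pool at a time, the Zfp81 region missed the threshold in 7 of 22 fits, with the largest p without female water pool 2, and the Zfp808 region in 0. For H3K36me3 it was 0 of 17, against 5.94%, and 1 of 17 without TMM factors. Of all H3K36me3 regions at this threshold, 46.2% were positive with the factors and 3.01% without.

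Females and males were compared over both treatments. Members are autosomal, whereas the regions of the whole genome take in chromosomes X and Y, so values over all regions are not a like background. The part of these chromosomes in them was not tested. For H3K9me3, 3 of 61 member regions reached the unadjusted threshold (4.92%), against 10.2% of all regions, and all 3 were lower in females. They lay in Zfp697 (32.4 ± 5.23 against 38.3 ± 3.92 CPM, SD, n = 11 each), Zfp946 and Zfp345, with log2 fold changes of -0.24, -0.13 and -0.19 and adjusted p (edgeR) of 0.19, 0.436 and 0.49. For H3K36me3, 1 of 17 reached it (5.88%, against 5.85%), in Zfp936 (log2 fold change -0.26, edgeR adjusted p = 0.764), and without TMM factors it was 0 of 17, against 3.45%. Leaving out 1 pool at a time, the threshold was missed in 0 of 22 fits for Zfp697, 5 for Zfp946, 13 for Zfp345 and 6 for Zfp936. Over all regions tested, 943 H3K9me3 and 31 H3K36me3 regions passed after adjustment, and 0 of them lay in member genes. Without TMM factors the share of called regions higher in females went from 61.3% to 47.5% for H3K9me3 and from 56.4% to 80.9% for H3K36me3.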

How the data were processed

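The 22 pools gave 44 precipitated libraries. The deposited lists, which have no header, hold for each SICER island its position, counts of precipitated and input reads, a p-value, a fold over input (a ratio scaled by library size) and an FDR (q-value). Per the submitters' processing notes, the authors used FastQC, cutadapt, Bowtie2 2.4.1 and SICER on GRCm38 (mm10), and the names of the lists give windows of 200 bp and gaps of 400 bp (H3K9me3) and 600 bp (H3K36me3). Only called islands are listed, so reads outside islands were not used, and DBA/2J reads were aligned to the reference of another strain. The 22 input samples have no list of their own here.

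Island reads were spread evenly over 200 bp windows. Consensus regions are positions under islands in at least 11 of 22 libraries, 200 bp or longer, on the autosomes and on X and Y. Their counts, rounded, were tested with edgeR 4.0.16 (quasi-likelihood, TMM, filterByExpr, Benjamini-Hochberg over all regions). A count summed this way moves with the length called as an island. DESeq2 1.42.0 and limma 3.58.1, the latter on the log2 ratio of precipitated to input reads with a pseudocount of 1 read, served as alternatives. Front and end parts of genes, each 1 of 3 equal parts, were compared by an exact sign test. The tests were run on simulated data first. Figures and counts used Python 3.11.15 with pandas 2.3.3. Unadjusted thresholds of 0.05 follow the study's methods.

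Members and lists were chosen with earlier results of these data known. Named genes were the 10 with each mark in the most libraries (ties broken by the larger median share of the end part, so that these genes lean towards that end), the 5 with both marks in the most pools, the 5 with the largest excess of H3K9me3 in the front part, up to 3 member regions of smallest p per comparison, and the KRAB pathway list, of which those with a mark in at least 11 libraries were given. Gene names and positions came from GENCODE, and sequences from RefSeq. Pools are the replicates, so p-values measure the spread between pools.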

Additional observations from a re-analysis of the deposited data

Results flagged for a closer look

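Each group of 5 or 6 pools was examined for a value far from the others, over 52 groups of values, and chance alone flags about 1 in 20 groups. There were 3 such values. Male water pool 4 had the lowest share of the end part (of 3 equal parts) of member genes under H3K9me3, 4.04%, against 4.64% ± 0.35 (SD, n = 5) for its group. The same pool had the lowest share of member H3K9me3 length that was also under H3K36me3, 7.51%, in a group with a mean of 15.96%. Male ethanol pool 5 had the lowest share of member H3K36me3 length under H3K9me3, 27.6%, in a group with a mean of 52.4% ± 12.8 (n = 6), whereas male water pools ran from 22.98% to 28.1%. Over all genes the corresponding group means were 44.5% in ethanol and 15.3% in water pools.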

How the results depend on the processing

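No member region passed edgeR's Benjamini-Hochberg adjustment in any fit run, so the counts of regions given here are at the unadjusted threshold. Of 80 alternatives other than leaving out a pool, 59 kept their value within 1.5 times or 1 SD and 21 did not. Relative to input (limma), the number of member regions was 7 and 2 for H3K9me3 ethanol against water in males and females (5.44% and 4.75% of all regions), 5 for H3K9me3 female against male (6.03%) and 1 for the H3K36me3 interaction (7%). With islands at an FDR of at most 0.01, it was 0 for the H3K9me3 interaction and sex comparisons and 0 for H3K36me3 in males, in females and between the sexes. These fits called 2.72%, 14.5%, 0%, 0% and 2% of all regions and tested 25, 25, 13, 31 and 15 member regions, the last 3 present in at least 8 of 11 or 16 of 22 libraries. Without TMM factors it was 1 for H3K36me3 in females, 1 for its interaction and 0 for its sex comparison (2.83%, 9.22% and 3.45% of all regions). DESeq2 gave 1 for H3K36me3 in females (3.41%), and symbols with letters after the digits gave 3 for H3K9me3 in females (3.99%). Islands at an FDR of at most 1e-05 gave 3.81% and 1.28% of member length under H3K9me3 and H3K36me3, 21 genes with H3K36me3 in at least 11 libraries and 14 with more H3K36me3 in the end part.

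Equal replicate numbers did not pair the pools: correlations of their deviations ran from -0.12 to 0.07. With a replicate block the counts were 0 and 1 for H3K9me3 in males and for its interaction, and 2 for H3K36me3 between the sexes (2.91%, 3.51% and 5.54% of all regions); the other block fits were within 1.5 times.

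Leaving out 1 pool at a time, H3K9me3 counts were 1 to 3 in males, 0 to 4 in females, 1 to 3 for the interaction and 1 to 5 between the sexes. H3K36me3 counts were 1 to 4, 1 to 3, 0 to 1 and 0 to 2. Genes marked in at least 11 libraries numbered 42 to 46 and 58 to 68. The limit stayed at 11 with a pool left out, so these counts could only stay or fall. Genes with more in the end part numbered 15 to 17 and 25 to 31, and covered shares were 4.91% to 4.92% and 2.83% to 2.87%. H3K36me3 libraries held 1.70 to 4.79 M precipitated reads inside islands, against 5.73 to 14.2 M for H3K9me3, and the part of depth in the calls was not tested.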
